A study of Mus musculus with 12 samples.

Results

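The genes described here are the mouse cytochromes P450 of families 1 to 4, the haem-containing mono-oxygenases that carry most of the oxidation of drugs, toxicants, steroids and fatty acids in the liver. They were taken from the deposited expression table as every gene whose symbol is Cyp, a family number from 1 to 4, 1 subfamily letter and a final number. This gave 75 of 47069 genes: 3 of family 1, 48 of family 2, 7 of family 3 and 17 of family 4. Of these, 58 passed the filter for testing, a mean of at least 0.1 FPKM (fragments mapped to a transcript, scaled by its length and by the total of the library) over the 12 libraries. The filter uses the mean of all groups, so a member can pass through 1 group alone. Another 8 members were listed at 0 in every library, and 9 were above 0 in at least 1 library but under the filter.

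The libraries were made from mice at postnatal day 14 (P14). Wild type (WT) mice were compared with Cdk1 Liv-/- mice, in which both copies of a floxed Cdk1 allele are deleted by a Cre recombinase driven by the Albumin promoter, so that the deletion is aimed at hepatocytes and other liver cells keep the gene. RNA was taken from isolated hepatocytes or from snap-frozen whole liver, which gave 4 groups of 3 libraries. The study describes its mice as males. The study states in general that its experiments had at least 3 biological replicates, and the labels do not name the mouse behind each library, so p-values measure the spread between these samples. CDK1 is the kinase that drives entry into mitosis, and the comparisons ask how the P450 genes of the liver stand at P14 when hepatocytes cannot divide.

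P450 enzymes sit in the endoplasmic reticulum and take electrons from the reductase Por. In the liver their transcripts are controlled by nuclear receptors and the aryl hydrocarbon receptor, by growth hormone, which gives many of them a sex bias in adults, by age, since some are replaced between birth and adulthood, and by position along the lobule. A conserved loop around a cysteine holds the haem iron, and its coding bases show how closely related these genes are. The loop, read as F, any 2 residues, G, any residue, R, any residue, C, any residue, G, was found in 73 of the 75 members by translating their transcripts. The 73 loops were coded by 59 distinct runs of 30 bases, and 24 members shared their run with another member. The runs below, in GENCODE M21 transcripts on GRCm38, belong to members on which the results turn, with the cysteine codon in capitals.
Cyp2c40, Cyp2c67, Cyp2c68 and Cyp2c69: ttctcagcaggaaaacggattTGTgtggga
Cyp2c37 and Cyp2c54: ttctcaacagggaaacggataTGTgcagga
Cyp2c50: ttctcaacaggaaaacggataTGTgcagga
Cyp2d9 and Cyp2d26: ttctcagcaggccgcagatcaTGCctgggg
Cyp2a22: ttttccattgggaagcgatccTGTttggga
Cyp2a4 and Cyp2a5: ttttccattggaaaacggtatTGTttcgga
Cyp1a2: ttcggcttgggaaagcgccggTGCattggg
Cyp2e1: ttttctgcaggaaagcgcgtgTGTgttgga
Cyp3a11: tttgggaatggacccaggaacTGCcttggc
Cyp4f14: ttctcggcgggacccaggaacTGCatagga
Members with the same run fell on different sides of the genotype comparisons described further on, as did Cyp2c67 and Cyp2c69, or Cyp2d9 and Cyp2d26. Most members lie in tandem clusters, with 15 each on chromosomes 4, 7 and 19, 9 on chromosome 17 and 8 each on chromosomes 5 and 15. A read from such a cluster can match several genes, so the share of a member's 75-base windows that occur in no other gene is given for members whose copies matter to a result.

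The labels were checked first on Cdk1. Its FPKM was 27.9, 20.4 and 28.2 in WT hepatocytes and 9.68, 11.8 and 6.87 in Cdk1 Liv-/- hepatocytes, and 25.3, 22.7 and 21.5 in WT liver against 11.7, 12.1 and 14.2 in Cdk1 Liv-/- liver, with no overlap in either compartment. The values cover the whole gene, of which the floxed allele loses 1 exon. The depth, estimated from the steps between low FPKM values, was 34.9 to 49.9 reads per FPKM and kilobase of transcript. The summed FPKM of 11 hepatocyte markers lay between 109000 and 120000 for WT and between 74900 and 78400 for Cdk1 Liv-/- hepatocytes, and in liver between 113000 and 117000 for WT and between 82400 and 88600 for Cdk1 Liv-/-, with overlapping ranges in both kinds of WT sample, so this sum does not check the isolation. The 8 erythroid markers summed to 24.5 to 581 FPKM over the hepatocyte libraries and to 1100 to 2170 over the liver libraries. In WT the stellate cell markers also separated, at 123 to 429 in hepatocytes and 465 to 540 in liver. So did those of cholangiocytes (14.6 to 30.1 and 45.9 to 62.2) and lymphocytes (4 to 11 and 21.2 to 25.7). The sums of Kupffer cell, endothelial and neutrophil markers overlapped in WT. Markers of Kupffer cells summed to 175 to 598 in WT hepatocytes and 460 to 520 in WT liver. A total of 9 markers of sinusoidal endothelium had sums between 50.9 and 78.7 in the Cdk1 Liv-/- hepatocytes and between 110 and 309 in those of WT, and between 154 and 216 in WT liver. In Cdk1 Liv-/- hepatocytes 8 of the 9 were called lower, beside 2.17% of all genes. The third library of Cdk1 Liv-/- liver had an Xist FPKM of 158 and listed 4 Y-linked genes at 0, where no other library had Xist above 0.14. In bulk samples, fewer cells of a type and less RNA per cell cannot be told apart.

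Some libraries stood apart over the P450 genes themselves. The members summed to 0.794% to 1.17% of all FPKM in 11 of the libraries and to 0.567% in the second library of Cdk1 Liv-/- liver. That library held the lowest value of its group for 38 of the 58 tested members, where 27.5% of all genes tested were lowest there. It also held the highest sums in its group of markers of Kupffer cells (832 FPKM), endothelium (248), stellate cells (1200), erythroid cells (1770), neutrophils (317) and lymphocytes (19.4). Its sums of hepatocyte markers and of cholangiocyte markers (139, against 270 and 260) were the lowest of the group. Replicate 3 of WT hepatocytes was the lowest of its group for 36 of the 58, against 32.1% of all genes, and held the highest sums of markers of endothelium, stellate cells and erythroid cells among the hepatocyte libraries. The root mean square deviation of the members from their group mean was 0.62 (log2) in the second Cdk1 Liv-/- liver library and 0.55 in the second Cdk1 Liv-/- hepatocyte library, against 0.28 and 0.27 over all genes. Where leaving out one of these libraries changed a call between the genotypes, the value without it, or the range of values, is given.

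**Figure D1:**
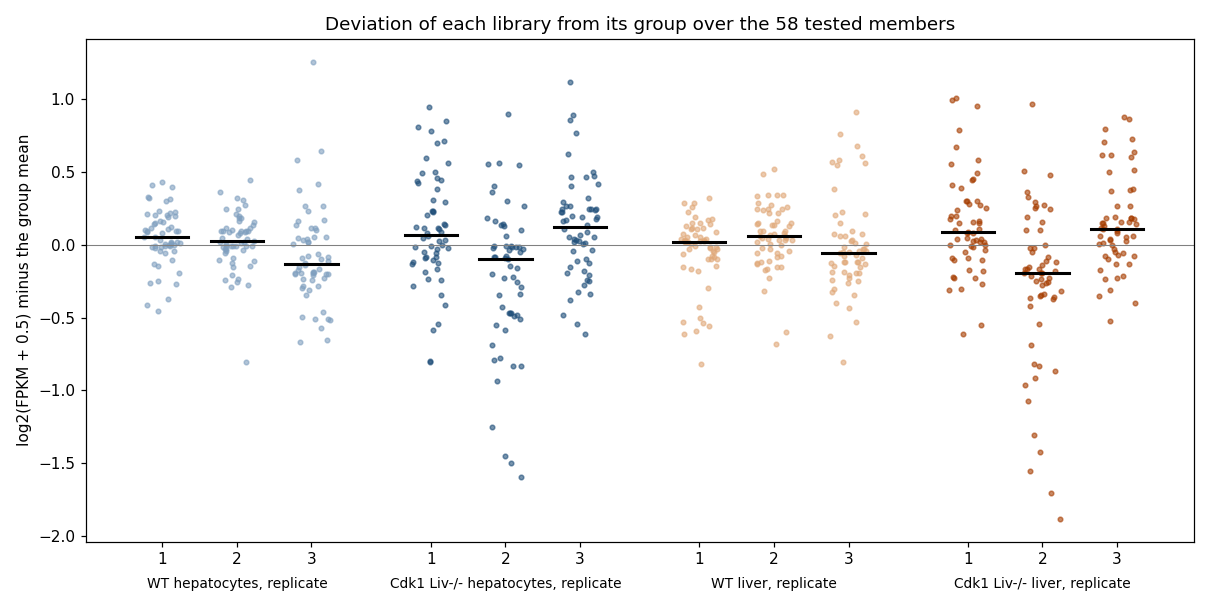
Each point is 1 of the 58 tested members in 1 library, placed by its log2(FPKM + 0.5) minus the mean of its group, with the 3 libraries of each of the 4 groups side by side and a black bar at the median. The second libraries of Cdk1 Liv-/- hepatocytes and liver spread most, with root mean square deviations of 0.55 and 0.62. Their medians are -0.097 and -0.2, and that of WT hepatocyte replicate 3 is -0.13.

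In WT tissue a few P450 genes made up most of the signal. The mean over the 6 WT libraries was at least 100 FPKM for 15 members, at least 10 for 36 and at least 1 for 49. Cyp2e1, which oxidises ethanol and paracetamol in cells near the central vein, led with 2050 FPKM and 28.7% of the summed FPKM of all members. It was followed by Cyp3a11, the main drug-oxidising form of the adult mouse, at 836 FPKM, Cyp2d26 at 594, Cyp2c70, which makes muricholic bile acids, at 455, and Cyp2a12 at 346. Cyp2c68 at 321, Cyp2c37 at 265 and Cyp3a25 at 222 completed the first 8, which together held 71.2% of the members' sum. The neighbours in this order were not all apart. Cyp2c68 ranged from 284 to 346 FPKM over the WT libraries and Cyp2a12 from 302 to 386, so these overlapped, whereas the lowest value of Cyp2e1, 1292, lay above the highest of Cyp3a11, 965. Forms known for early life or for females were also abundant, with 176 FPKM for Cyp2b9 and 181 for Cyp3a16. At the other end, Cyp1a1 and Cyp1b1, family 1 members known mainly from induction and from cells other than hepatocytes, had means of 0.0983 and 0.06 FPKM.

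**Figure D2:**
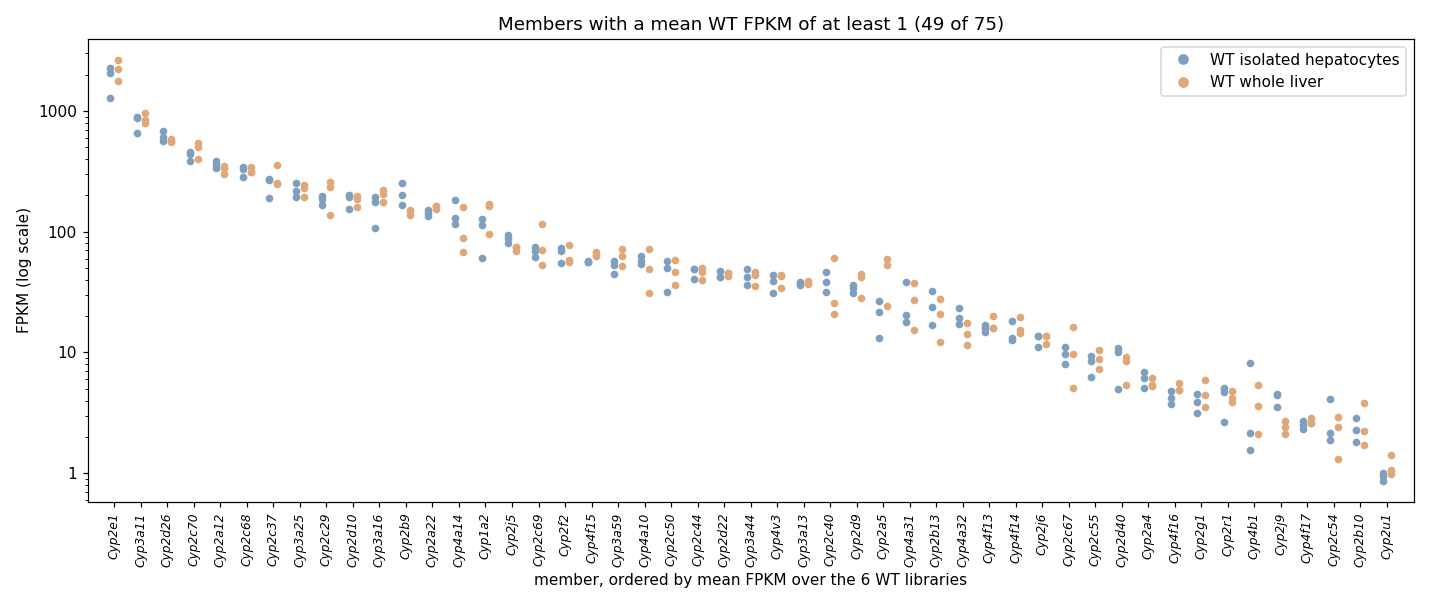
FPKM on a log axis of the 49 members with a mean of at least 1 over the WT libraries, ordered by that mean, with each of the 6 WT libraries as a point. The order runs from Cyp2e1 at a mean of 2050 FPKM to Cyp2u1 at 1.05.

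Isolated hepatocytes and whole liver of WT mice were compared next. Of the 58 tested members, limma called 0 higher and 0 lower in WT hepatocytes than in WT liver, a call being an adjusted p up to 0.1 with a difference of 1 or more on the log2 scale in either direction, where 0.0403% of all genes were called higher and 0.426% lower, so few calls would be looked for among 58 genes. A two-sample test also called 0, and 9 of the 58 had an unadjusted limma p under 0.05, beside 3272 of 17386 genes. The log2 differences ran from -1.09 to 0.68, with a median of -0.073 against -0.097 over all genes, and 8 tested members did not overlap, beside 26.0% of all genes. Cyp2a5, at 26.8, 21.7 and 13.1 FPKM in WT hepatocytes and 53.2, 59.5 and 24.1 in WT liver, had the lowest difference of -1.09 (adjusted p 0.244) and overlapped. Cyp2j9 had the highest difference of 0.68, at 4.55, 4.41 and 3.56 FPKM in WT hepatocytes and 2.12, 2.69 and 2.43 in WT liver, and its adjusted p was 0.117.

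Within hepatocytes, loss of Cdk1 was accompanied by a change in 10 P450 genes. Cyp2d9, Cyp2c50 and Cyp4f14 were higher, and Cyp2c69, Cyp2b10, Cyp2a22, Cyp2c37, Cyp4a32, Cyp2j9 and Cyp2g1 were lower. The 3 higher members stand beside 4.20% of all genes called higher, and the 7 lower members of 58 beside 2.17% of all genes called lower. The median log2 fold change of the tested members was 0.069 and that of all genes 0.049, with 34 members positive and 24 negative. For 28 of the 58 members the 3 Cdk1 Liv-/- libraries did not overlap the 3 WT libraries, beside 34.0% of all genes. One of them, Cyp2c38, reached the filter only through Cdk1 Liv-/- hepatocytes. Its means were 0.0367 FPKM in WT and 0.357 in Cdk1 Liv-/- hepatocytes, and 0.01 and 0.19 in WT and Cdk1 Liv-/- liver. Without the threshold on the fold change, 11 members rose and 11 fell at an adjusted p up to 0.1, beside 12.1% and 6.61% of all genes.

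Whole liver showed more changed members. Cyp2d9, Cyp2c67, Cyp2c54, Cyp4a10, Cyp2c44, Cyp1b1 and Cyp4f18 were called higher, beside 4.59% of all genes. Another 11, Cyp2c69, Cyp1a2, Cyp2b10, Cyp2a5, Cyp2f2, Cyp2g1, Cyp2a22, Cyp3a16, Cyp3a44, Cyp2c70 and Cyp2c37, were called lower, beside 1.00% of all genes. The median over the 58 members was -0.035 where that of all genes was 0.18, and 30 members did not overlap between the genotypes, beside 52.1% of all genes. By the adjusted p alone 13 members rose and 20 fell, beside 38.0% and 7.53% of all genes. The risers and the members without overlap include Cyp1b1 and Cyp2s1, which reached the filter only through Cdk1 Liv-/- liver. For Cyp2s1 the means were 0.117 FPKM in WT liver and 0.32 in Cdk1 Liv-/- liver, and 0.0133 and 0.0267 in WT and Cdk1 Liv-/- hepatocytes. Their part in these counts is to be read as a description. Scaling the libraries by median ratios moved the median of all genes in liver from 0.18 to 0.013 and gave 2 members higher and 13 lower in place of 7 and 11. Of all genes, 513 were then called higher and 242 lower, in place of 798 and 174. Under that scaling Cyp2d9 and Cyp2c67 remained called higher, while Cyp2c44, Cyp1b1, Cyp4a10 and Cyp4f18 stood at 0.88, 0.96, 0.96 and 0.87 (log2), short of the threshold on the fold change, and the adjusted p of Cyp2c54 was 0.135.

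Both compartments shared 6 called members, each in the same direction: Cyp2d9 higher, and Cyp2c69, Cyp2a22, Cyp2b10, Cyp2g1 and Cyp2c37 lower. These are 6 of the 10 called in hepatocytes and 6 of the 18 called in liver. Of all genes, 6.37% were called in hepatocytes and 5.59% in liver, in either direction. Across the 58 members the log2 fold changes of the compartments had a Pearson r of 0.691 and a Spearman rho of 0.673, and 47 had the same sign. The share of all genes called in both compartments, or with the same sign, is not given here, so the 6 and the 47 lack a background. Over all genes tested Pearson's r was 0.565. These coefficients run across genes, which are not independent replicates, and share library preparation, so they are given as a description.

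**Figure D3:**
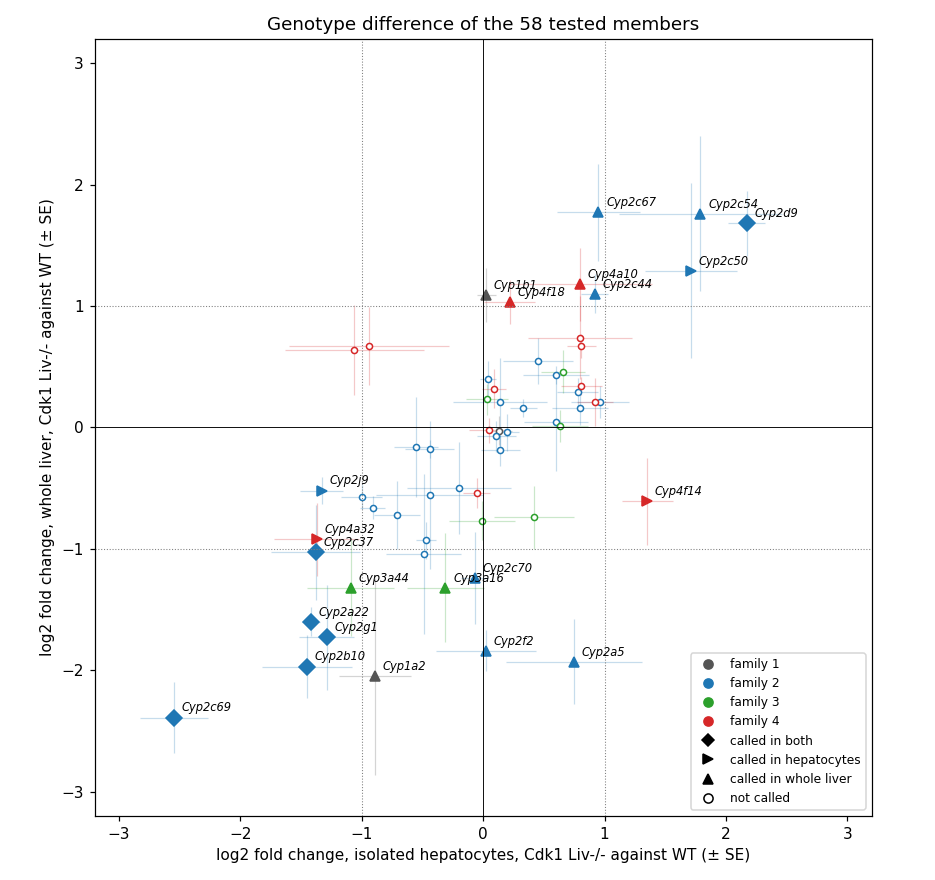
Log2 fold change of Cdk1 Liv-/- against WT in hepatocytes (horizontal) and whole liver (vertical) for the 58 tested members, marked by where they were called. Cyp2c69 lies lowest on both axes at -2.55 and -2.39 and Cyp2d9 furthest right at 2.17, while Cyp2a5 and Cyp4f14 lie on opposite sides of 0 in the compartments.

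The Cyp2c subfamily on chromosome 19, whose products oxidise arachidonic acid, steroids and drugs, moved in both directions at once. Of its 13 tested members, 1 was called higher and 2 lower in hepatocytes, and 3 higher and 3 lower in liver, beside 4.20% and 2.17% of all genes in hepatocytes and 4.59% and 1.00% in liver. The largest fall was that of Cyp2c69 (GRCm38 chr19:39842814-39886799, minus strand). Its FPKM was 69.3, 62.0 and 75.4 in WT hepatocytes and 7.39, 17.0 and 11.6 in Cdk1 Liv-/- hepatocytes. Liver gave 53.4, 70.1 and 116 in WT and 12.3, 13.2 and 17.0 in Cdk1 Liv-/-. Every Cdk1 Liv-/- library lay below every WT library of its compartment, and the fall was 2.55 (log2, SE 0.28) in hepatocytes with an adjusted p of 0.00521 and 2.39 (SE 0.29) in liver with an adjusted p of 0.00413.

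Cyp2c69 has 3 near copies, Cyp2c67 (chr19:39608842-39649051), Cyp2c68 (chr19:39688834-39741054) and Cyp2c40 (chr19:39767071-39812814), all on the minus strand within the same stretch. Only 57.4% of the 75-base windows of Cyp2c69 are its own, and the share is 64.0% for Cyp2c67, 71.5% for Cyp2c68 and 54.1% for Cyp2c40. The counting program divides shared reads among such genes by an estimate, so the value of each single copy is uncertain. The copies nevertheless differed in direction. Cyp2c67 was at 5.06, 9.70 and 16.1 FPKM in WT liver and 30.9, 41.3 and 27.8 in Cdk1 Liv-/- liver, a rise of 1.77 (log2, SE 0.40, adjusted p 0.0225) with no overlap. In hepatocytes it was at 11, 7.96 and 9.77 in WT and 12.8, 16.1 and 32.4 in Cdk1 Liv-/- libraries, and the log2 fold change of 0.95 did not pass (adjusted p 0.132). These groups did not overlap either, and without Cdk1 Liv-/- replicate 1 it was 1.22 (adjusted p 0.0993). Cyp2c68, by far the most abundant copy, went from 332, 346 and 284 FPKM to 158, 178 and 175 in hepatocytes (log2 fold change -0.91, SE 0.10, adjusted p 0.00532) and from 310, 341 and 315 to 207, 182 and 225 in liver (-0.66, SE 0.092, adjusted p 0.00584), below the fold threshold in both. Cyp2c40 had log2 fold changes of -0.55 and -0.16, with adjusted p of 0.11 and 0.79. The sum of the copies depends less on how their shared reads were divided, as it moves only with the small differences in transcript length between them. It was 450, 448 and 416 FPKM in WT hepatocytes and 200, 237 and 250 in Cdk1 Liv-/- hepatocytes, and 390, 446 and 508 in WT liver and 273, 271 and 300 in Cdk1 Liv-/- liver. The groups did not overlap, with log2 differences of the sum of -0.94 and -0.66, and most of the lost signal was that of Cyp2c68.

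The promoters of these copies are alike over the bases shown. Stretches of 70 bases at or just upstream of the annotated start, from RefSeq on GRCm38.p6 and read on the minus strand, are shown because Cyp2c67 and Cyp2c69 moved in opposite directions in liver. The letters TATAAA, searched on both strands, are in capitals.
Cyp2c67, chr19:39649073-39649142: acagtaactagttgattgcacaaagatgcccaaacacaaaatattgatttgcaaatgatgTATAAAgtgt
Cyp2c69, chr19:39886750-39886819: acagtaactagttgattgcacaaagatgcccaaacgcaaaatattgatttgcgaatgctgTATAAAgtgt
Cyp2c68, chr19:39741084-39741153: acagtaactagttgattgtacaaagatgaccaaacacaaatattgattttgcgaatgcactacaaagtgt
Cyp2c67 and Cyp2c69 agree at 67 of 70 positions (95.7%), Cyp2c68 and Cyp2c69 at 63 of 71 aligned positions (88.7%). The match begins 40 bases before the annotated start of Cyp2c67 and 10 bases after that of Cyp2c69, so the annotated starts do not mark the same place. Windows of 300 bases set by those starts agree at 66.6% of aligned positions for Cyp2c67 and Cyp2c69 and at 91.1% for Cyp2c68 and Cyp2c69. Promoter windows of 300 bases were found for 62 members, and 27 of their 69 windows held TATAAA (39.1%), beside 13.6% of all 32851 windows. GCGTG, the core letters bound by the aryl hydrocarbon receptor, was in 14 of the 69 (20.3%) and in 32.4% of all. Such a match is a description of the letters only.

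A second group of Cyp2c genes, Cyp2c37, Cyp2c50 and Cyp2c54, which oxidise arachidonic and linoleic acid, also split. Of their windows 86.2%, 89.6% and 85.9% are their own. Cyp2c50 was at 49.7, 57.8 and 31.4 FPKM in WT hepatocytes and 183, 86.2 and 205 in Cdk1 Liv-/- hepatocytes, a rise of 1.71 (log2, SE 0.38, adjusted p 0.0408). In liver it was at 46.4, 58.5 and 36.3 in WT and 227, 34.6 and 186 in Cdk1 Liv-/-, where the second library fell within the WT range and the log2 fold change of 1.29 did not pass (adjusted p 0.212). Without that library it was 2.14 with an adjusted p of 0.006. Cyp2c54 was also lowest in the second Cdk1 Liv-/- library, with 12.6, 2.82 and 15.7 FPKM in Cdk1 Liv-/- liver against 1.31, 2.42 and 2.93 in WT liver (log2 fold change 1.76, SE 0.64, adjusted p 0.0798), and its second library overlapped WT. In hepatocytes it was at 1.88, 2.17 and 4.13 in WT and 13.4, 3.29 and 22.8 in Cdk1 Liv-/- (1.79, adjusted p 0.146), and without the second Cdk1 Liv-/- library at 2.54 (adjusted p 0.0275). Cyp2c37 moved the other way and was lowest where Cyp2c50 was lowest. It stood at 268, 272 and 189 FPKM in WT hepatocytes and 136, 51.3 and 111 in Cdk1 Liv-/- hepatocytes (-1.38, SE 0.37, adjusted p 0.068), and at 254, 358 and 248 in WT liver and 220, 77.3 and 154 in Cdk1 Liv-/- liver (-1.03, SE 0.39, adjusted p 0.0914). The summed FPKM of the 3 genes overlapped between the genotypes in both compartments, with log2 differences of -0.20 and -0.32. The calls of these genes were thin. Cyp2c37 lost its call without any of 5 libraries in each compartment, all but Cdk1 Liv-/- replicate 1, with log2 fold changes of -1.55 to -0.96 in hepatocytes and -1.13 to -0.62 in liver. Cyp2c50 lost it in hepatocytes without WT replicate 1 or 3 or Cdk1 Liv-/- replicate 1 or 3 (1.46 to 1.78, adjusted p 0.103 to 0.115). Cyp2c54 lost it in liver without any library but the second Cdk1 Liv-/- one (1.33 to 1.95, adjusted p 0.128 to 0.212).

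The other called members of the subfamily read from sequence of their own (100% of windows). Cyp2c44, an epoxygenase of arachidonic acid, was at 40.2, 46.8 and 50.5 FPKM in WT liver and 111, 79.2 and 110 in Cdk1 Liv-/- liver, higher by 1.10 (log2, SE 0.16, adjusted p 0.00614). Its hepatocyte values, 40.3, 49.1 and 49.4 against 80.4, 87.0 and 96.7, did not overlap either, and the log2 fold change of 0.92 (adjusted p 0.00678) lay just under the threshold on size. Cyp2c70 was called in liver alone, and the interaction of genotype and compartment did not pass (1.17, adjusted p 0.121). In hepatocytes it was at 442, 454 and 383 FPKM in WT and 397, 446 and 375 in Cdk1 Liv-/-, whereas liver gave 542, 503 and 403 in WT and 286, 111 and 262 in Cdk1 Liv-/- (-1.24, SE 0.38, adjusted p 0.0499). Its call was lost without WT replicate 1 or 2 or Cdk1 Liv-/- replicate 2 of liver, at log2 fold changes of -1.20 to -0.81.

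**Figure D4:**
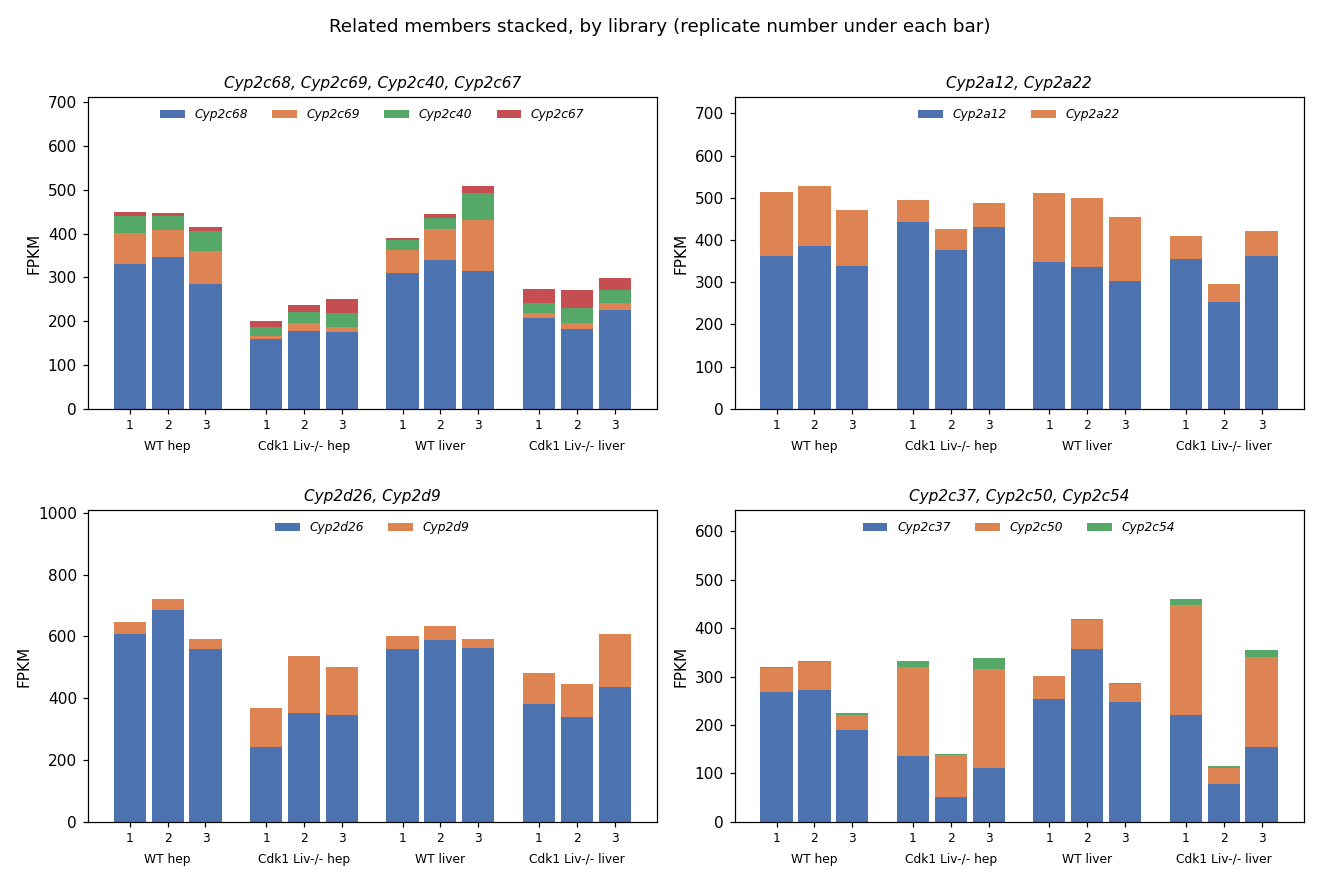
Stacked FPKM of related members in each of the 12 libraries, linear axes from 0, with 1 panel for each group of copies. In the panel of Cyp2c40, Cyp2c67, Cyp2c68 and Cyp2c69 the bars of WT hepatocytes reach 416 to 450 and those of Cdk1 Liv-/- hepatocytes 200 to 250, while Cyp2c37, Cyp2c50 and Cyp2c54 overlap between the genotypes.

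Cyp2d9, known as a male-predominant testosterone hydroxylase of adult mice, showed the largest rise among the members in hepatocytes. Its FPKM was 36.5, 34.1 and 31.4 in WT hepatocytes and 127, 186 and 157 in Cdk1 Liv-/- hepatocytes. Liver gave 42.0, 44.9 and 28.5 in WT and 99.2, 107 and 174 in Cdk1 Liv-/-. No library overlapped, and the rise was 2.17 (log2, SE 0.15, adjusted p 0.00136) in hepatocytes and 1.68 (SE 0.27, adjusted p 0.00824) in liver. The highest liver value was that of the library with Xist and without Y-linked transcripts, and without it the log2 fold change was 1.43 (adjusted p 0.0186). Cyp2d9 lies at chr15:82433437-82456845 on the plus strand, with 87.1% of its windows its own. Cyp2d26, from the same cluster (chr15:82790101-82794294, minus strand), with the same haem loop bases, went from 609, 687 and 560 FPKM to 243, 352 and 345 in hepatocytes and from 559, 588 and 564 to 382, 338 and 436 in liver. It did not overlap between the genotypes, but its log2 fold changes of -1 (SE 0.17, adjusted p 0.0184) and -0.57 (SE 0.10, adjusted p 0.011) fell short of the size asked for a call, in hepatocytes by less than the rounding shown. It was called lower in hepatocytes without WT replicate 1 or 3 or Cdk1 Liv-/- replicate 2 or 3 (adjusted p 0.036 to 0.0722). Their promoters share the letters TTTATA, which is TATAAA on the other strand and is in capitals here, but agree at only 49 of 78 aligned positions (62.8%).
Cyp2d9, chr15:82452289-82452358: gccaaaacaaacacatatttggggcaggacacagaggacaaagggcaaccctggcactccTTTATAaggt
Cyp2d26, chr15:82794267-82794336: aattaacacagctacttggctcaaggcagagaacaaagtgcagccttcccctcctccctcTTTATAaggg
The other 4 tested members of the subfamily were not called in either compartment.

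Among the Cyp2a genes on chromosome 7, Cyp2a22 fell to a like level in every Cdk1 Liv-/- library. It was at 152, 142 and 135 FPKM in WT hepatocytes and 52.9, 51.4 and 55.3 in Cdk1 Liv-/- hepatocytes, and at 162, 163 and 153 in WT liver and 56.3, 43.7 and 58 in Cdk1 Liv-/- liver. These libraries did not overlap, and Cyp2a22 fell by 1.42 (log2, SE 0.073, adjusted p 0.00062) and by 1.60 (SE 0.12, adjusted p 0.000876). Its near copy Cyp2a12, which hydroxylates bile acids, was at 363, 386 and 337 FPKM against 442, 375 and 432 in hepatocytes and at 349, 337 and 302 against 354, 253 and 363 in liver, with log2 fold changes of 0.20 (adjusted p 0.242) and -0.042 (adjusted p 0.854). Of the windows of each, 90.8% are its own. The promoter stretches of the pair, on the plus strand for Cyp2a12 and the minus strand for Cyp2a22, are shown because they agree at 67 of 70 positions (95.7%) while the genes did not move together.
Cyp2a12, chr7:27028991-27029060: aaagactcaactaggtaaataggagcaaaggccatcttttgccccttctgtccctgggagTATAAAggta
Cyp2a22, chr7:26939405-26939474: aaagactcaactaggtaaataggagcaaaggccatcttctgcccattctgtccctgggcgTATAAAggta
Cyp2a5, the coumarin hydroxylase, differed between the compartments. In liver it was at 53.2, 59.5 and 24.1 FPKM in WT and 12.4, 9.30 and 10.7 in Cdk1 Liv-/-, lower by 1.93 (log2 fold change -1.93, SE 0.35, adjusted p 0.0116) with no overlap. In hepatocytes it was at 26.8, 21.7 and 13.1 in WT and 57.8, 13.7 and 46.3 in Cdk1 Liv-/-, where the second library fell within the WT range (log2 fold change 0.75, adjusted p 0.43). Without that library Cyp2a5 was higher in hepatocytes by 1.37 (adjusted p 0.075). Cyp2a5 shares reads with Cyp2a4, and 77.7% of its windows are its own. The sum of both was 32.9, 28.6 and 18.1 in WT hepatocytes and 70.7, 20.1 and 56.1 in Cdk1 Liv-/- hepatocytes, and 58.5, 65.6 and 29.4 in WT liver and 16.0, 21.1 and 15.2 in Cdk1 Liv-/- liver, so the direction of the sum in each compartment was that of Cyp2a5.

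Cyp2b10, the standard target of the constitutive androstane receptor, was weakly expressed and lower in both compartments. It was at 1.83, 2.27 and 2.86 FPKM in WT hepatocytes and 1.29, 0.24 and 0.31 in Cdk1 Liv-/- hepatocytes (log2 fold change -1.45, SE 0.37, adjusted p 0.0583). In liver the values were 1.71, 2.23 and 3.83 in WT and 0.27, 0.36 and 0.15 in Cdk1 Liv-/- (-1.97, SE 0.26, adjusted p 0.00514). No library overlapped. The hepatocyte call was lost without any WT library or without Cdk1 Liv-/- replicate 2 or 3, at log2 fold changes of -1.58 to -1.21 (adjusted p 0.121 to 0.162). The liver call was kept whichever library was left out. Cyp2g1, best known from olfactory tissue, was at 4.52, 3.89 and 3.18 FPKM in WT hepatocytes and 1.17, 1.84 and 0.91 in Cdk1 Liv-/- hepatocytes, and at 4.47, 5.89 and 3.52 in WT liver and 1.77, 0.28 and 1.48 in Cdk1 Liv-/- liver. Its log2 fold changes were -1.29 (SE 0.23, adjusted p 0.0227) and -1.73 (SE 0.43, adjusted p 0.0294), with no overlap. Cyp2j9 was at 1.24, 1.16 and 1.70 FPKM in Cdk1 Liv-/- hepatocytes, below each WT value, and fell by 1.33 (log2, SE 0.18, adjusted p 0.00857). In liver it went from 2.12, 2.69 and 2.43 to 1.58, 1.33 and 1.66, and the log2 fold change of -0.52 (adjusted p 0.0183) was under the threshold on size.

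Cyp2f2, which oxidises naphthalene and is expressed in periportal hepatocytes, was called in liver and not in hepatocytes. It was at 77, 56.0 and 58.1 FPKM in WT liver and 21.2, 16.0 and 15.3 in Cdk1 Liv-/- liver, with no overlap and a log2 fold change of -1.84 (SE 0.17, adjusted p 0.00199). In hepatocytes the Cdk1 Liv-/- libraries, at 109, 34.6 and 77.9, spread around the WT libraries at 55.1, 69.5 and 73.6, and the log2 fold change was 0.023 (adjusted p 0.979). Cyp1a2, the pericentral target of the aryl hydrocarbon receptor that oxidises caffeine and aromatic amines, was at 169, 164 and 95.5 FPKM in WT liver and 66.9, 8.60 and 61.0 in Cdk1 Liv-/- liver. These values did not overlap, and the log2 fold change of -2.05 (SE 0.81, adjusted p 0.0989) rested in size on the second Cdk1 Liv-/- library, without which it was -1.11 with an adjusted p of 0.0428. The call was lost without any WT liver library or Cdk1 Liv-/- replicate 3 (-2.49 to -1.91, adjusted p 0.106 to 0.23). In hepatocytes Cyp1a2 was at 127, 113 and 60.5 in WT and 49.7, 63.5 and 43.3 in Cdk1 Liv-/- (-0.89, adjusted p 0.117). Without WT replicate 3, whose endothelial, stellate and erythroid marker sums were the highest among the hepatocyte libraries, it was -1.21 with an adjusted p of 0.0278. Cyp1a1, a further target of that receptor, stayed between 0.02 and 0.2 FPKM in all 12 libraries.

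The pericentral member Cyp2e1 was not called. It was at 2266, 2077 and 1292 FPKM in WT hepatocytes and 1519, 882 and 1623 in Cdk1 Liv-/- hepatocytes, and at 2241, 2649 and 1774 in WT liver and 2068, 363 and 1618 in Cdk1 Liv-/- liver. Both pairs of groups overlapped, with log2 fold changes of -0.49 (SE 0.31, adjusted p 0.351) and -1.04 (SE 0.66, adjusted p 0.267). The liver value was -0.26 (adjusted p 0.381) without the second Cdk1 Liv-/- library, which held the lowest level of Cyp2e1, Cyp1a2 and Cyp2c70 at once.

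Family 3 on chromosome 5 held members that moved either way. Of its 7 tested members, 0 were called by limma in hepatocytes, where 1 rose by the adjusted p alone, beside 12.1% of all genes, and 2 were called lower in liver, beside 1.00%, with median log2 fold changes of 0.031 and -0.74. By the adjusted p alone 1 rose and 4 fell in liver, beside 38.0% and 7.53% of all genes. The summed FPKM of the family, most of it Cyp3a11, overlapped between the genotypes, at 1080 to 1450 in WT and 1430 to 2050 in Cdk1 Liv-/- hepatocytes and at 1300 to 1580 and 1160 to 1780 in liver. Cyp3a16, a form of fetal and young mice, was at 206, 223 and 175 FPKM in WT liver and 110, 38.0 and 124 in Cdk1 Liv-/- liver (-1.32, SE 0.45, adjusted p 0.07), with no overlap. Cyp3a44, a female-predominant form, was at 46.3, 35.5 and 43.9 in WT liver and 20.3, 8.47 and 25.4 in Cdk1 Liv-/- liver (-1.32, SE 0.40, adjusted p 0.0495), again without overlap. Its hepatocyte values, 42.1, 48.9 and 36.5 in WT and 35.5, 14 and 14.9 in Cdk1 Liv-/-, did not overlap either (-1.09, SE 0.36, adjusted p 0.108), and it was called there without Cdk1 Liv-/- replicate 1 (-1.52, adjusted p 0.0118), with equal sums and with a filter at 1 FPKM. In liver without the second Cdk1 Liv-/- library the log2 fold changes were -0.78 (adjusted p 0.0141) and -0.86 (adjusted p 0.0199) for Cyp3a16 and Cyp3a44, so that both then passed the test but not the size. Both calls were also lost without WT liver replicate 1 or 3, and that of Cyp3a16 without replicate 2. Cyp3a11, the adult form and a target of the pregnane X receptor, was at 869, 897 and 657 FPKM in WT hepatocytes and 1295, 1058 and 1479 in Cdk1 Liv-/- hepatocytes, all higher than WT (log2 fold change 0.66, SE 0.18, adjusted p 0.0698). In liver it went from 835, 965 and 793 to 1264, 931 and 1428, where the second library overlapped WT (0.46, SE 0.18, adjusted p 0.0903). Both passed the adjusted p and neither the size. Cyp3a25 went from 231, 244 and 193 to 154, 107 and 133 in liver (-0.77, SE 0.16, adjusted p 0.0162) and overlapped in hepatocytes (-0.011, adjusted p 0.986).

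**Figure D5:**
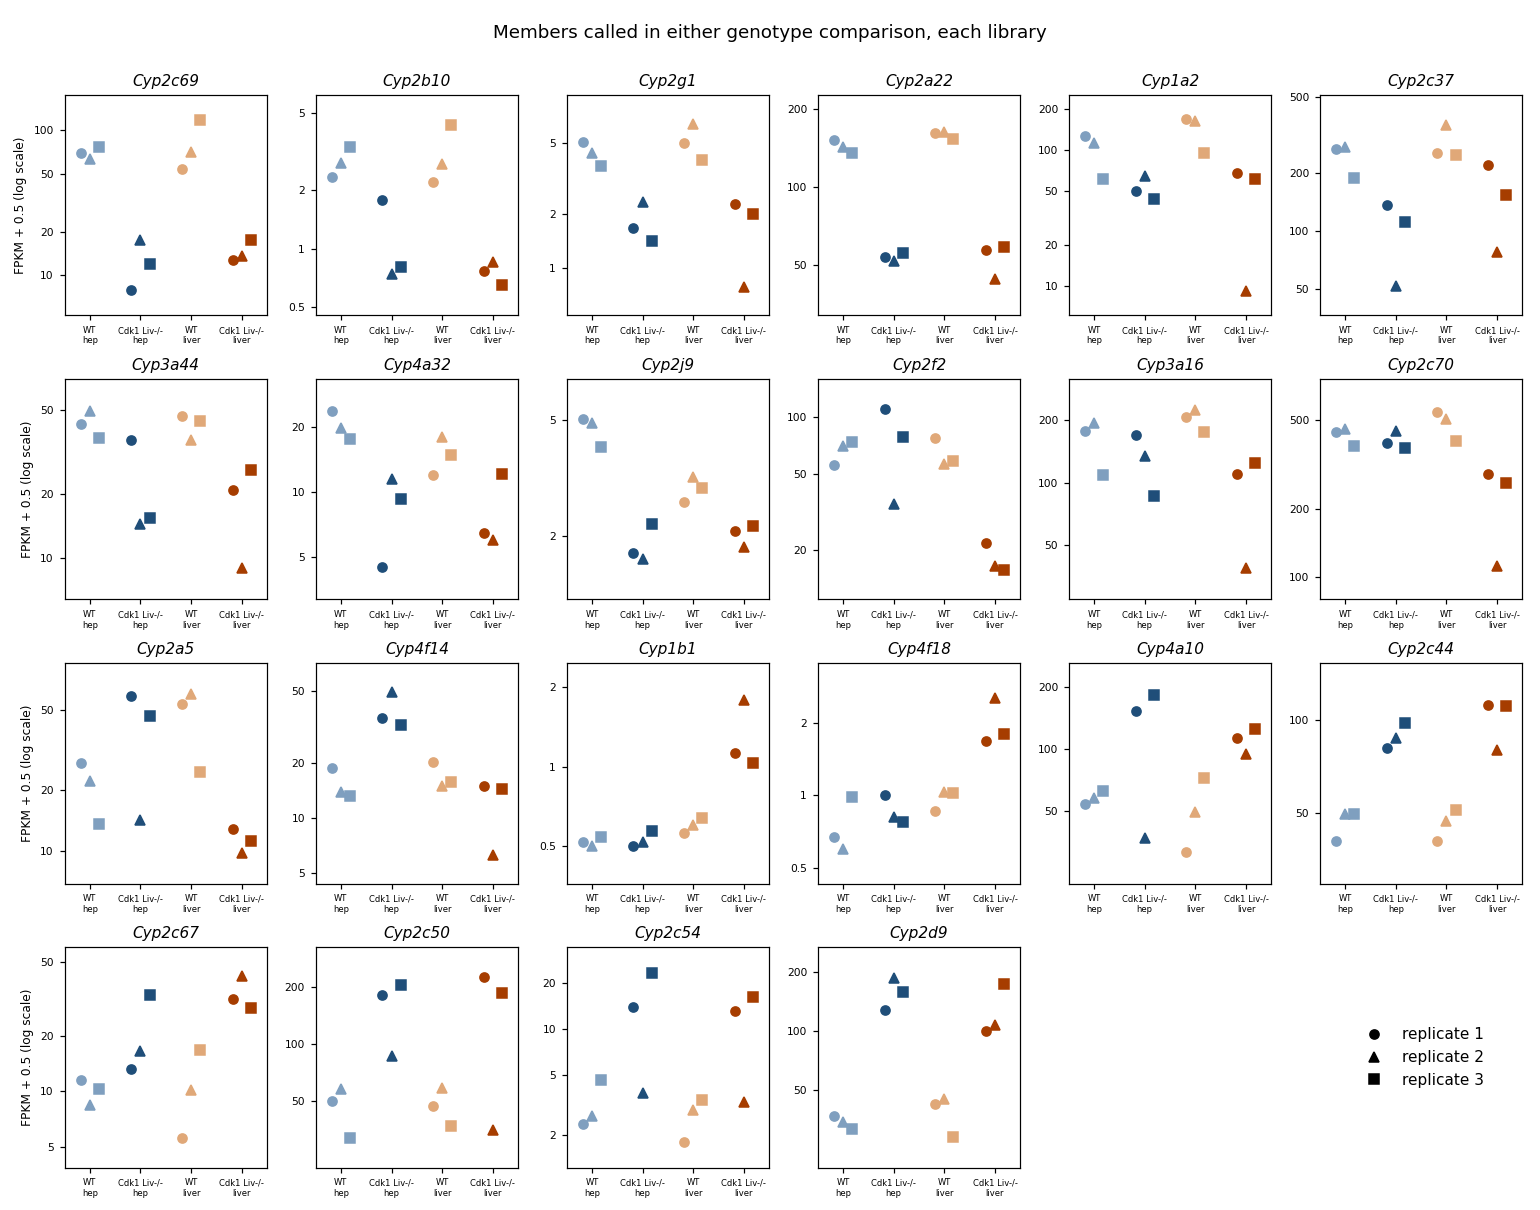
FPKM on log axes of the members called in either genotype comparison, with 1 panel a member and 1 point for each of the 12 libraries. Cyp2a22, Cyp2c69 and Cyp2d9 separate the genotypes in both compartments, Cyp2f2 only in liver, and Cyp1a2 has its lowest point, 8.60 FPKM, in the second Cdk1 Liv-/- liver library.

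Family 4 holds the omega-hydroxylases of fatty acids and eicosanoids, with the Cyp4a genes as targets of the receptor Ppara. Cyp4a10, with 81.6% of its windows its own, was at 31.2, 49.0 and 72 FPKM in WT liver and 113, 93.7 and 125 in Cdk1 Liv-/- liver, higher by 1.18 (log2, SE 0.30, adjusted p 0.031) with no overlap. The call was lost without WT liver replicate 1 (0.88, adjusted p 0.0536). In hepatocytes the second Cdk1 Liv-/- library, at 36.6, lay below WT at 53.7, 57.4 and 62.5, and the others, at 153 and 183, above it (0.80, adjusted p 0.419). Without that library Cyp4a10 was higher by 1.52 with an adjusted p of 0.00678. Cyp4a14 overlapped in both compartments, at 117, 131 and 183 against 119, 23.8 and 136 in hepatocytes (-0.94, adjusted p 0.395) and 68.4, 88.9 and 159 against 135, 188 and 155 in liver (0.67, adjusted p 0.151). Its liver log2 fold change was 1.01 (adjusted p 0.029) without WT replicate 3. Cyp4a32, of whose windows 72% are its own and 19.1% are shared with Cyp4a10, was at 23.2, 19.4 and 17.2 FPKM in WT hepatocytes and 3.99, 11 and 8.80 in Cdk1 Liv-/- hepatocytes, lower by 1.37 (log2 fold change -1.37, SE 0.35, adjusted p 0.0589) with no overlap. That call was lost without any WT library or Cdk1 Liv-/- replicate 1 or 3, at log2 fold changes of -1.5 to -0.97 (adjusted p 0.0406 to 0.166). In liver it was at 11.5, 17.5 and 14.3 in WT and 5.97, 5.53 and 11.6 in Cdk1 Liv-/- (-0.92, SE 0.30, adjusted p 0.0624), and it was called lower there without WT replicate 1 or Cdk1 Liv-/- replicate 3 (-1.24 to -1.07). The sum of Cyp4a10, Cyp4a31 and Cyp4a32 overlapped in hepatocytes, at 94.9, 97.3 and 118 against 214, 71.2 and 248, and not in liver, at 70, 82 and 124 against 166, 150 and 168, with log2 differences of 0.60 and 0.85.

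Cyp4f14, which inactivates leukotrienes, rose in hepatocytes. It was at 18.3, 13.3 and 12.7 FPKM in WT and 34.8, 48.8 and 31.9 in Cdk1 Liv-/- hepatocytes, higher by 1.35 (log2, SE 0.21, adjusted p 0.0134) with no overlap. In liver it overlapped, at 19.7, 14.5 and 15.3 in WT and 14.6, 5.78 and 13.8 in Cdk1 Liv-/- (-0.61, SE 0.36, adjusted p 0.234). Of the 7 tested Cyp4f members, 3 rose and none fell in hepatocytes by the adjusted p alone, beside 12.1% and 6.61% of all genes. In liver 3 rose and 1 fell, beside 38.0% and 7.53% of all genes. Vitamin D hydroxylase Cyp2r1 and the fatty acid hydroxylase Cyp2u1 also passed that threshold in hepatocytes but not the size. Cyp2r1 went from 4.73, 5.11 and 2.68 FPKM to 8.47, 9.37 and 7.22 (0.96, adjusted p 0.0571), and Cyp2u1 from 0.95, 1.01 and 0.87 to 2.23, 2.20 and 1.54 (0.78, adjusted p 0.0389). Neither passed in liver.

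A further 2 members called higher in liver are weakly expressed and are known from other cells. Cyp1b1, found in fibroblasts and stellate cells, was at 0.06, 0.10 and 0.14 FPKM in WT liver and 0.63, 1.28 and 0.53 in Cdk1 Liv-/- liver, without overlap (log2 fold change 1.09, SE 0.22, adjusted p 0.015, understated by the added 0.5). It stayed between 0 and 0.07 in the hepatocyte libraries. Its mean reached the filter of 0.1 FPKM only through Cdk1 Liv-/- liver, so that it was tested because it is high there, and its call is to be read as a description. Without the second Cdk1 Liv-/- liver library the log2 fold change was 0.85 (adjusted p 0.00695), under the size. The 10 markers of stellate cells and fibroblasts summed to 465 to 540 FPKM in WT liver and 898 to 1200 in Cdk1 Liv-/- liver, with 4 of the 10 called higher (beside 4.59% of all genes) and none at 0, and to 123 to 429 and 108 to 126 in hepatocytes of WT and Cdk1 Liv-/- mice. Cyp4f18, the leukotriene hydroxylase of neutrophils, was at 0.36, 0.53 and 0.52 in WT liver and 1.18, 2.03 and 1.3 in Cdk1 Liv-/- liver, without overlap (1.03, SE 0.18, adjusted p 0.0104). In hepatocytes it was at 0.17, 0.1 and 0.48 in WT and 0.5, 0.31 and 0.27 in Cdk1 Liv-/-, which overlapped each other and WT liver (0.22, adjusted p 0.533). Its call was lost without WT replicate 1 or Cdk1 Liv-/- replicate 2 (0.85 to 0.94). The 8 neutrophil markers summed to 45.8 to 74.2 FPKM in WT liver and 88.8 to 317 in Cdk1 Liv-/- liver, with 5 of 8 called higher (beside the same 4.59%) and none at 0, and to 12 to 50.9 and 9.71 to 20.8 in WT and Cdk1 Liv-/- hepatocytes. The part of these cells in both results was not tested.

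Whether a genotype difference itself differed between hepatocytes and liver was tested as an interaction over all 12 libraries. It passed an adjusted p of 0.1 for 5 of the 58 members. Cyp2a5, Cyp2f2 and Cyp4f14 had the more positive difference in hepatocytes, by 2.68 (adjusted p 0.0693), 1.86 (adjusted p 0.0647) and 1.95 (adjusted p 0.0521) on the log2 scale, beside 2.35% of all genes. Cyp1b1 and Cyp2j9 had the more negative one, by -1.06 (adjusted p 0.0555) and -0.80 (adjusted p 0.065), beside 7.49% of all genes, with Cyp1b1 again among the tested genes only through Cdk1 Liv-/- liver. The median interaction over the members was 0.17 and that over all genes -0.11. Without the second library of both Cdk1 Liv-/- groups, an alternative added after the data had been seen, 9 members passed, among them all of these but Cyp2j9 (adjusted p 0.116). Cyp2a5, Cyp2f2 and Cyp2j9 no longer passed without any of 7 single libraries, the second of Cdk1 Liv-/- liver among them for each, at 2.29 to 2.68 (adjusted p 0.111 to 0.166), 1.71 to 1.94 (adjusted p 0.11 to 0.164) and -0.87 to -0.73 (adjusted p 0.101 to 0.165). The count was 0 without WT liver replicate 1 and 1 without WT liver replicate 2, and 9 without Cdk1 Liv-/- hepatocyte replicate 2. Counts of all genes under these alternatives are not given here. The sinusoidal endothelial markers, lower in Cdk1 Liv-/- than in WT hepatocytes, summed to 154 to 216 FPKM in WT liver and 196 to 248 in Cdk1 Liv-/- liver. In the same interaction test all 9 of them were negative with 7 past the adjusted p, as were all 10 Kupffer cell markers with 3 past it and all 10 stellate cell markers with 5 past it. Of all genes, 10847 of 17386 were negative there and 7.49% were negative and past it. The part of these cells in the members' differences was not tested.

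Members with a known sex bias in adults were also counted. Of 6 female-predominant forms (Cyp2a4, Cyp2b9, Cyp2b13, Cyp2c40, Cyp3a16 and Cyp3a44), limma called 0 in hepatocytes, none passed the adjusted p alone, and the median log2 fold change was -0.44. In liver 2 of the 6 were called lower, Cyp3a16 and Cyp3a44, with a median of -0.37, beside 1.00% of all genes. Both calls were lost without the second Cdk1 Liv-/- library, and the third library of that group is the one with Xist and without Y-linked transcripts. Cyp2d9, the male-predominant form, rose in both compartments.

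Genes whose products serve the P450 enzymes were counted as lists. Of 9 partners of electron transfer and of the membrane, of which 7 were higher in hepatocytes and 8 in liver without regard to a test (beside 9800 and 12706 of 17386 genes), 1 was called in each compartment (beside 6.37% and 5.59% of all genes in either direction), Ephx1, the microsomal epoxide hydrolase that opens the epoxides P450 enzymes make. It was at 32.9, 45.6 and 44.4 FPKM in WT hepatocytes and 193, 146 and 167 in Cdk1 Liv-/- hepatocytes, and at 38.6, 55.9 and 42.7 in WT liver and 235, 217 and 259 in Cdk1 Liv-/- liver. Ephx1 did not overlap and rose by 2.04 (log2, SE 0.16, adjusted p 0.00196) and by 2.38 (SE 0.15, adjusted p 0.000566). Por overlapped in hepatocytes (0.37, adjusted p 0.315) and in liver went from 154, 178 and 165 to 129, 96.4 and 135 (-0.48, SE 0.14, adjusted p 0.0456). The summed FPKM of the 9 was 1640 to 1940 in WT and 2010 to 2600 in Cdk1 Liv-/- hepatocytes, and 1880 to 2150 and 1930 to 2730 in liver. Of 12 genes of haem supply and breakdown, which summed to 463 to 503 FPKM in WT and 521 to 550 in Cdk1 Liv-/- hepatocytes and to 496 to 544 and 605 to 648 in liver, 1 was called in hepatocytes, beside 6.37% of all genes, and 0 in liver, where 4 rose by the adjusted p alone, beside 38.0% of all genes. The one was Alas1, the first enzyme of haem synthesis, at 81.9, 112 and 84.2 in WT and 161, 199 and 227 in Cdk1 Liv-/- hepatocytes (1.07, SE 0.17, adjusted p 0.0161). That call was lost without WT replicate 1 or Cdk1 Liv-/- replicate 3 (0.96 to 0.99), and with median-ratio size factors, where it fell just short of the size.

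Of 17 tested transcriptional regulators of P450 genes, 1 was called in each compartment, which is near the share of all genes called in either direction, 6.37% in hepatocytes and 5.59% in liver. Cux2, a factor of female liver, was at 12.4, 12.4 and 10.2 FPKM in WT hepatocytes and 4.85, 1.67 and 2.15 in Cdk1 Liv-/- hepatocytes, lower by 1.95 (log2 fold change -1.95, SE 0.34, adjusted p 0.0196) with no overlap. In liver Cux2 was at 3.77, 5.73 and 10.5 in WT and 3.47, 2.29 and 5.60 in Cdk1 Liv-/-, and the log2 fold change of -0.71 did not pass (adjusted p 0.244). Ppara was at 19.9, 21.9 and 23.2 in WT liver and 5.85, 11.9 and 7.92 in Cdk1 Liv-/- liver, lower by 1.34 (log2 fold change -1.34, SE 0.24, adjusted p 0.0113) with no overlap. In hepatocytes Ppara was at 51.0, 26.7 and 22.1 in WT and 6.43, 27.2 and 40.6 in Cdk1 Liv-/- (-0.67, adjusted p 0.563). The pregnane X receptor Nr1i2 had log2 fold changes of 0.22 (adjusted p 0.368) and 0.20 (adjusted p 0.0775), the constitutive androstane receptor Nr1i3 0.078 (adjusted p 0.848) and -0.15 (adjusted p 0.737), and the aryl hydrocarbon receptor Ahr -0.27 (adjusted p 0.509) and -0.082 (adjusted p 0.627). The medians over the list were 0.17 in hepatocytes and -0.10 in liver.

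The acute phase reactants, which hepatocytes raise in inflammation, were a list of 12 genes. Of these, 8 were called higher in each compartment, beside 4.20% of all genes in hepatocytes and 4.59% in liver. The 12 summed to 5260 to 5560 FPKM for WT and 8670 to 12300 for Cdk1 Liv-/- in hepatocytes, and to 5380 to 5490 and 8320 to 9750 in liver. The part of that change in the P450 results was not tested. The calls that held under each of 16 alternative settings were those of Cyp2a22, Cyp2c69, Cyp2d9, Cyp2g1, Cyp2j9 and Cyp4f14 in hepatocytes, 6 of 10, and those of Cyp2a22, Cyp2a5, Cyp2b10, Cyp2c67, Cyp2c69, Cyp2d9, Cyp2f2 and Cyp2g1 in liver, 8 of 18. None of the 5 members past the interaction test held under all of its alternatives.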

How the data were processed

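There were 12 RNA libraries from P14 mice, 3 for each combination of genotype (WT or Cdk1 Liv-/-) and sample (isolated hepatocytes or whole liver). The authors selected polyadenylated RNA, made stranded libraries, sequenced single-end reads of 75 bases, aligned them with STAR to mm10 and quantified genes with RSEM 1.2.31, per the submitters' processing notes. The deposited values are FPKM to 2 decimals, not normalized between libraries by the authors. No source used here gives the annotation release or the STAR version. RSEM assigns reads that match several genes by an estimate.

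The test was limma 3.58.1 (R 4.3.3), two-sided, with eBayes and a trend, applied to log2(FPKM + 0.5) within each compartment, and as an interaction over all libraries. Fold changes are on that scale and understate those of low genes. Benjamini-Hochberg adjustment covered 17386 genes whose mean reached 0.1 FPKM. Calls needed an adjusted p up to 0.1 and a difference of 1 or more on the log2 scale in either direction. A two-sample test with the same adjustment and threshold on the fold (the authors used q values and no such threshold), other filters, pseudocounts and scalings, a replicate block and leaving out each library were alternatives. Values are FPKM per library. The fit was tested on simulated data, but no result of that test is given here and no call rests on it.

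Positions and the sharing of 75-base windows come from GENCODE M21 on GRCm38, and promoters from RefSeq on GRCm38.p6. Cyp2c44 has the name Cyp2c23 in GENCODE. The depth estimate uses the steps between low FPKM values and is approximate, so no intervals on counts are given. The members and lists were chosen with earlier results of these data known. Named with values were every called member, the 8 most abundant in WT, the members past the interaction test, tested members of family 1, textbook members of each subfamily and called or standard partners and regulators. Cyp2c40, Cyp2a4 and Cyp4a31 are mentioned as copies of a called member, and others as members of a list. Cyp2s1 and Cyp2c38 are mentioned for how they passed the filter. The lists of Kupffer cells, cholangiocytes, lymphocytes and erythroid cells were measured as well. In liver 0, 3, 0 and 0 of their genes were called higher and 0, 0, 1 and 0 lower, beside 4.59% and 1.00% of all genes. In hepatocytes 0, 2, 0 and 0 were called higher and 1, 0, 3 and 1 lower, beside 4.20% and 2.17%. Of the listed genes, 10, 5, 8 and 8 were tested.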

Additional observations from a re-analysis of the deposited data

Results flagged for a closer look

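The genotype difference of 5 members differed between hepatocytes and whole liver by the interaction test in limma, which is what singled them out. These are 5 of 58, beside 1712 of 17386 genes, so the share of members is near that of all genes. Cyp2a5 differed by 2.68 on the log2 scale, from 0.75 in hepatocytes to -1.93 in liver. Cyp4f14 differed by 1.95, from 1.35 to -0.61, and Cyp2f2 by 1.86, from 0.023 to -1.84. Cyp1b1 differed by -1.06, with 0.026 in hepatocytes and 1.09 in liver, and it was tested only because Cdk1 Liv-/- liver lifts its mean over the filter. Cyp2j9 differed by -0.80, with falls of 1.33 and 0.52. None of the 5 passed under every alternative: of 21, Cyp2j9 was lost under 11, Cyp2a5 and Cyp2f2 under 8 each and Cyp4f14 under 1, and Cyp1b1 under 2 of 20. The sum of the 9 endothelial markers lay between 110 and 309 FPKM for WT and between 50.9 and 78.7 for Cdk1 Liv-/- hepatocytes, and in liver between 154 and 216 for WT and between 196 and 248 for Cdk1 Liv-/-, and the part of the isolation of the cells in these differences was not tested. With 3 libraries a group, no library was tested for standing apart within its group gene by gene.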

How the results depend on the processing

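In hepatocytes 3 members were called higher and 7 lower, beside 730 and 377 of all genes. The higher count was 5 with a pseudocount of 0.1, beside 1114 of all genes. With 1 library left out it was 2 to 6, beside 638 to 711. The lower count was 4 without a filter on low values and 4 by the two-sample test, beside 165 and 133 of all genes. With 1 library left out it was 4 to 7, beside 168 to 592. In liver 7 were called higher and 11 lower, beside 798 and 174 of all genes. The higher count was 2 with median-ratio size factors, beside 513 of all genes. With 1 library left out it was 4 to 8, beside 715 to 928. The lower count was 6 without a filter and 6 by the two-sample test, beside 152 and 150 of all genes. With 1 library left out it was 7 to 12, beside 161 to 200. Without the threshold on the fold change the counts were 11 and 11 in hepatocytes and 13 and 20 in liver, beside 12.1%, 6.61%, 38.0% and 7.53% of all genes. The interaction passed for 5 members, 2 without a filter, 0 to 9 with 1 library left out and 9 without both second Cdk1 Liv-/- libraries. Counts of all genes under these interaction alternatives are not given here. WT hepatocytes against WT liver gave 0 calls under each alternative run. Where 1 library was left out, the remaining ones were assumed to vary like the other groups.

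With the replicate number as a block, 2 members were called higher and 4 lower in hepatocytes, 6 higher and 8 lower in liver, and 4 passed the interaction. Of all genes, 617 were then called higher and 197 lower in hepatocytes, and 783 and 168 in liver. Over all genes tested, libraries with the same number did not deviate together, with correlations of -0.317 to 0.239 between groups. Over the 58 tested members, WT replicate 3 was the lowest of its group for 36 in hepatocytes and 30 in liver. Cdk1 Liv-/- replicate 2 was the lowest for 29 and 38. The third Cdk1 Liv-/- libraries differed in Xist (0.01 FPKM in hepatocytes, 158 in liver) and in the summed 4 Y-linked genes (56.1 and 0). The labels do not name the mouse, so the numbers were not taken as pairs.

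Some log2 fold changes that were not called changed sign. In hepatocytes Cyp2f2 was at -0.053 with median-ratio size factors and at -0.33 to 0.49 with 1 library left out, Cyp3a25 at 0.0077 with equal sums and at -0.24 to 0.28, and Cyp1b1 at -0.028 to 0.067. Of the regulators, Nr1i3 was at -0.069 to 0.29 and Ppara at -1.19 to 0.093. In liver, leaving out 1 library gave -0.13 to 0.046 for Cyp1a1, -0.13 to 0.13 for Cyp2a12, -0.15 to 0.05 for Ahr and -0.35 to 0.22 for Nr1i3, and Nr1i2 was at -0.015 with median-ratio size factors. The cause was not tested. Members under the filter rest on few reads at 34.9 to 49.9 reads per FPKM and kilobase, and they were tested only in the alternative without a filter.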

Other observations

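Several members changed by less than the size asked for a call and yet did not overlap between the genotypes in at least 1 compartment. They were chosen after their values were seen. Cyp2j5, an epoxygenase of arachidonic acid, was at 94.1, 88.6 and 80.1 FPKM in WT hepatocytes and 60.7, 61.5 and 66.9 in Cdk1 Liv-/- hepatocytes, and at 74.7, 69.0 and 74.5 in WT liver and 42.3, 29.7 and 43.4 in Cdk1 Liv-/- liver. The genotypes did not overlap, with log2 fold changes of -0.47 (SE 0.086, adjusted p 0.0232) and -0.93 (SE 0.15, adjusted p 0.00864) in limma. Cyp4f16 went the other way, from 4.18, 3.78 and 4.84 to 8.17, 7.73 and 7.59 in hepatocytes (0.81, SE 0.12, adjusted p 0.0127) and from 5.55, 4.88 and 4.91 to 7.77, 9.44 and 8.07 in liver (0.67, SE 0.096, adjusted p 0.00623). Cyp4v3, a fatty acid hydroxylase, did so in hepatocytes, from 44.2, 39.0 and 30.9 to 78.7, 71.1 and 65.6 (0.92, SE 0.15, adjusted p 0.0149), while its liver values overlapped (0.21, adjusted p 0.454).

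Cyp4b1 and the markers of other cells were high in the same library of WT hepatocytes. It was at 2.14, 1.57 and 8.14 FPKM there and at 1.88, 0.75 and 1.24 in Cdk1 Liv-/- hepatocytes, and the highest value belonged to replicate 3, whose stellate cell markers summed to 429 FPKM against 206 and 123 in the other WT libraries. The log2 fold change of -1.06 did not pass (SE 0.57, adjusted p 0.272), and the part of other cells in it was not tested.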
